A study of Homo sapiens with 26 samples.

Results

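The RNA levels of 9 genes of selective autophagy and ubiquitin supply were followed in HCT116 cells, a human colorectal carcinoma line, with and without arsenite. The genes were taken as a fixed list of symbols from the 63086 genes counted: the receptors SQSTM1, NBR1 and OPTN, the ATG8-family genes MAP1LC3B and GABARAPL1, the kinase gene ULK1, the PI3P-binding effector gene WIPI1, the transcription factor gene TFEB and the polyubiquitin gene UBB. Of the 9 genes, 8 passed the filter on low counts and were tested, and TFEB did not. In selective autophagy, receptor proteins bind ubiquitin-tagged cargo on one side and ATG8-family proteins on the growing autophagosome membrane on the other. ULK1 starts the process, WIPI proteins read the lipid PI3P on the forming membrane, and TFEB drives transcription of autophagy and lysosome genes. Arsenite binds thiols of proteins and leads to oxidative stress, and polyubiquitin genes encode head-to-tail ubiquitin repeats that replenish the ubiquitin pool in stressed cells.

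The study asked how phosphorylation of the RNA-binding protein IGF2BP1 alters its condensates and the RNAs bound to it. All 4 mCherry-IGF2BP1 populations were HCT116 cells with Tet-OsTIR1 (an inducible plant auxin receptor), knocked out for IGF2BP2 and IGF2BP3, and expressed mCherry-tagged IGF2BP1 from a lentivirus as wild type (WT), S181E, Y396E or RQ. S181E and Y396E put glutamate in place of a phosphorylatable residue, and RQ has glutamine in place of arginines in a disordered linker. Each population received either PBS (control) or 500 µM sodium arsenite for 2 h, with 3 dishes plated separately per group, giving 8 groups and 24 libraries. Parental HCT116 cells, described in the paper as nonengineered, gave 1 control and 1 arsenite library. The knockout background came from single-cell clones and the populations were sorted by flow cytometry into a narrow mCherry gate, so a difference between populations is a difference between sorted lines and cannot be told apart from line-to-line variation. In bulk RNA, fewer cells expressing a gene and less RNA per cell cannot be told apart either.

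Stretches of DNA at the start sites of 4 of the genes are shown because these genes carry the results described below: UBB and MAP1LC3B, 2 of the genes that rose, contained the core of the antioxidant response element in their promoter windows, whereas the windows of SQSTM1, which rose as well, and of WIPI1, which fell, did not. Sequences were taken from RefSeq (GRCh38.p14) and are given 5′ to 3′ on the strand of the gene, with capitals marking a match to TGACNNNGC. The UBB stretch (chr17:16381301-16381329, plus strand) and the MAP1LC3B stretch (chr16:87392280-87392308, plus strand) lay in annotated exons of those genes. The SQSTM1 (chr5:179820707-179820877, plus strand) and WIPI1 (chr17:68457514-68457746, minus strand) stretches held no annotated exon base of any gene and had 74.9% and 79.0% G or C.
UBB: gagggcgaggTGACGCGGCgctgggcctt
MAP1LC3B: gcgagtcaccTGACCAGGCtgcgggctga
SQSTM1: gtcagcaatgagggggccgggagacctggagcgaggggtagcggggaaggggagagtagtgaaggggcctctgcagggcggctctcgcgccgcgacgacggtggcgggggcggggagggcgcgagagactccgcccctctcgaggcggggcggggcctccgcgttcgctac
WIPI1: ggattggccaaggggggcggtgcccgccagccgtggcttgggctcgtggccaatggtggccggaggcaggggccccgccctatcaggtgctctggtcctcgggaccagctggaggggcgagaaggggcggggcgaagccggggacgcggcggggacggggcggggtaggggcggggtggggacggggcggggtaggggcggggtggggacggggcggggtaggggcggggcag

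Across all 14 promoter windows of the 9 genes (250 bases before to 50 after a start site), TGACNNNGC, the antioxidant response element core, matched in 3 windows, both of UBB and 1 of MAP1LC3B. On either strand it was present in 13.3% of all 35116 windows. The heat shock element units GAANNTTC and TTCNNGAA, the E-box CACGTG bound by TFEB and the C/EBP-ATF element TGATGNAA matched in 0 of the 14 windows, and in 13.5%, 7.26% and 3.62% of all windows. The UBB match began 30 bases before one start site and at base 22 from the other, counting that start site as base 1. The MAP1LC3B match began 46 bases before its start site. A match of letters is a description only.

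Library totals ranged from 22508145 to 50834401 counts. Y396E arsenite replicate 3 stood apart, with counts for 13897 genes against 20850 to 23473 in the other 23 libraries of the 4 populations, and results that rest on it are given with and without it. Levels are in CPM, counts scaled by each library's total over the tested genes and its TMM factor, which is meant to offset differences in composition between libraries. CPM are relative levels, so a rise or fall is relative to the other tested genes and not an absolute amount. IGF2BP1 was at 0.347 and 0.645 CPM in the parental libraries and at group means of 12.1 to 47.1 CPM in the 4 populations. The epithelial markers EPCAM, KRT8, KRT18, CDH1 and VIL1 summed to 2014 to 2627 CPM in the 12 control libraries and 3146 to 3889 CPM in the 12 arsenite libraries, with VIL1 near 0. KRT8, KRT18 and CDH1 were called higher in arsenite in each population, and the part of this in the results below was not tested. Markers of blood, endothelial and stromal cells (PTPRC, CD3E, PECAM1, COL1A1, COL1A2) summed to at most 11.6 CPM, nearly all of it COL1A1.

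Levels of different genes were compared per kilobase of exon in WT control cells. UBB stood at 795 ± 16.9 CPM per kb (SD, n = 3), SQSTM1 at 71.9 ± 3.60, MAP1LC3B at 28.0 ± 0.820 and WIPI1 at 13.7 ± 0.320. NBR1 (10.995 ± 0.579) and GABARAPL1 (10.5 ± 0.295) followed with overlapping ranges, then OPTN (5.44 ± 0.211), ULK1 (2.94 ± 0.341) and TFEB (0.725 ± 0.0820). NBR1 and GABARAPL1 were the only neighbours in this order whose libraries overlapped. In WT arsenite cells WIPI1 (8.16 ± 0.528 CPM per kb) lay below NBR1 (16.3 ± 0.475) and GABARAPL1 (15.9 ± 0.622), which again overlapped, and the other genes kept their places. Among the 9099 tested genes, the mean level of UBB was at the 99.3th percentile, of SQSTM1 at the 95.4th and of ULK1 at the 11.8th, on the scale of CPM.

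**Figure D1:**
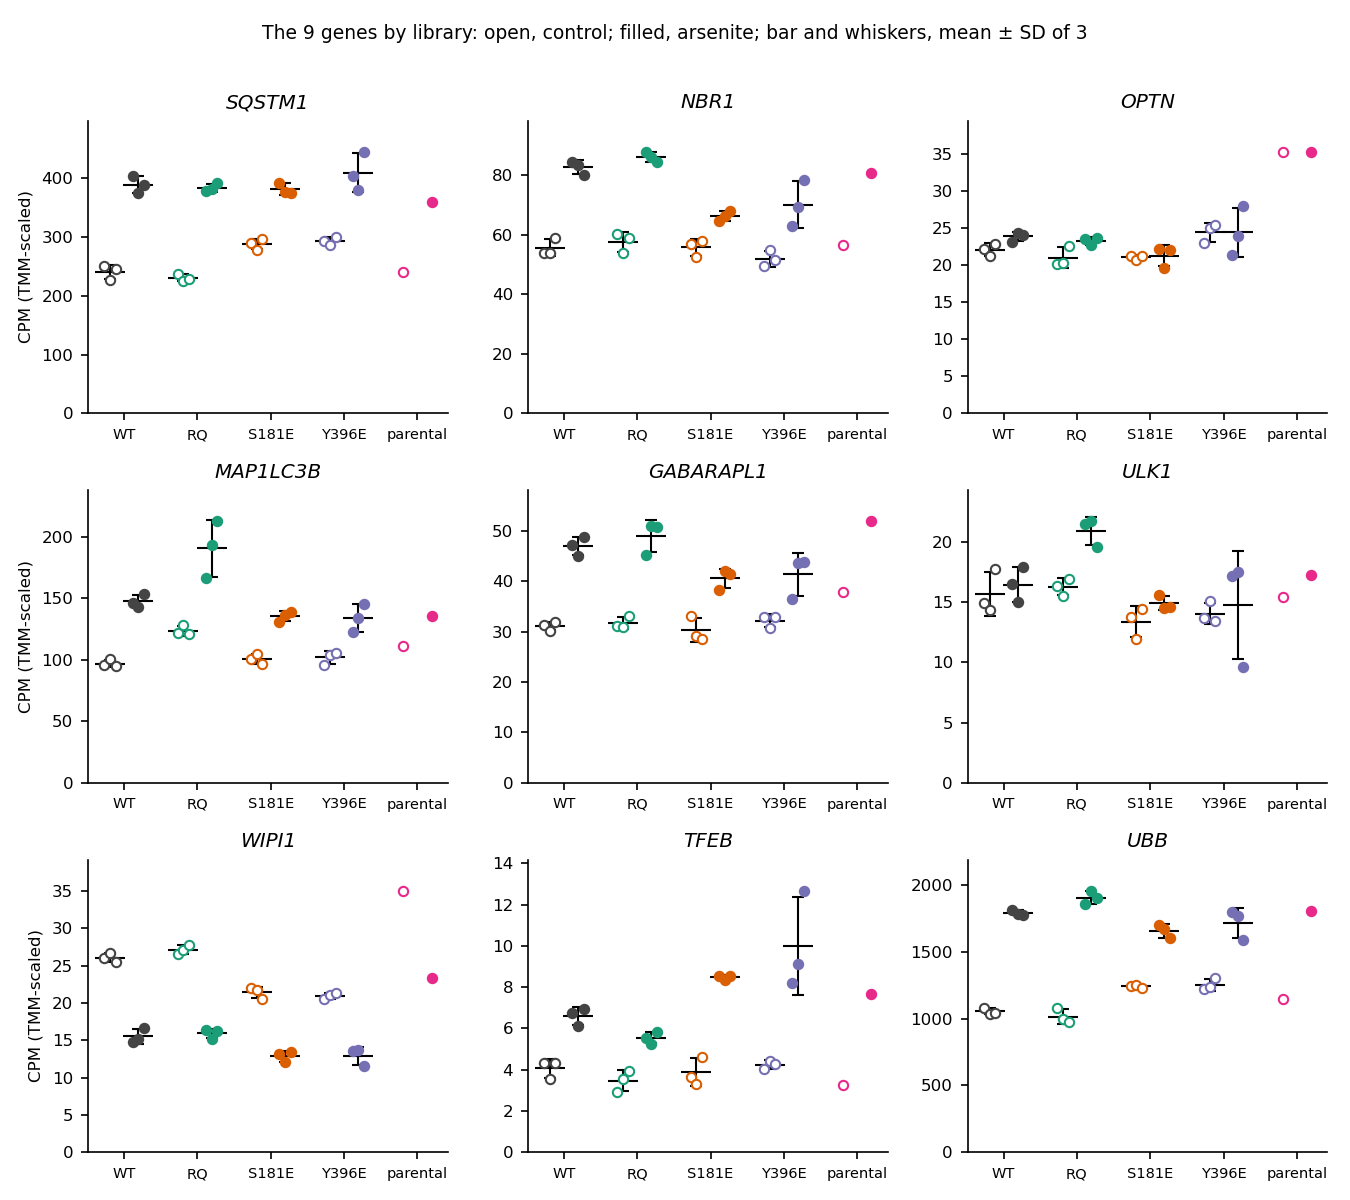
Levels of the 9 genes in each library, in TMM-scaled CPM (y axis, from 0), for the 4 populations and parental cells (x axis), with open points for control, filled points for arsenite, and the mean ± SD of 3 libraries. In each of the 4 populations, UBB, SQSTM1, NBR1, MAP1LC3B, GABARAPL1 and TFEB lay higher and WIPI1 lower in arsenite, without overlap with the control libraries. Parental cells had 1 library per treatment.

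Arsenite raised UBB, SQSTM1, MAP1LC3B and GABARAPL1 in all 4 populations and lowered WIPI1 in all 4. In WT cells 5 of the 8 tested genes were called higher and 1 lower, where 36.3% of all 9099 tested genes were called higher and 35.9% lower. Calls required an adjusted p below 0.05 together with at least a 1.2-fold difference, 0.263 in log2. In RQ cells 6 were called higher and 1 lower (37.1% and 35.8% of all genes), in S181E cells 4 and 1 (32% and 33.3%) and in Y396E cells 5 and 1 (32.9% and 32.9%). The median log2 change of the 8 genes was 0.58 for WT cells, 0.60 for RQ, 0.33 for S181E and 0.38 for Y396E, and that of all tested genes was -0.01, -0.01, -0.03 and -0.03. The 4 comparisons do not share libraries. Because the members were chosen with earlier results of these data known, the counts beside the all-gene shares do not test the list.

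UBB (ENSG00000170315.14, chromosome 17, 16381091 to 16382742 in hg38) was at 1079, 1037 and 1044 CPM in the WT control libraries and 1812, 1783 and 1775 CPM in WT arsenite. The ranges were far apart, and the log2 change was 0.77 ± 0.047 (SE, adjusted p = 1.8e-13). Adjusted p-values are those of the edgeR quasi-likelihood fit, with Benjamini and Hochberg's correction over all tested genes. RQ libraries went from 1075, 994.8 and 970.6 CPM to 1855, 1953 and 1902, a log2 change of 0.91 ± 0.047. S181E and Y396E cells started above WT and ended within or below its range. S181E libraries had 1244, 1250 and 1225 CPM in control and 1698, 1669 and 1599 in arsenite, and the log2 change was 0.42 ± 0.047. Y396E libraries had 1220, 1237 and 1303 CPM in control and 1792, 1764 and 1583 in arsenite, with 0.45 ± 0.047. Exact 100-base stretches of UBB transcripts recurred elsewhere in hg38 for 1.85%, in the pseudogene UBBP4. On the opposite strand a noncoding RNA gene shares 34.8% of the exon bases of UBB.

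RPS27A, which encodes ubiquitin fused to a ribosomal protein, went the other way from UBB. It was at 1487 ± 116.3 CPM in WT control and 956 ± 15.6 in WT arsenite (SD, n = 3) and was called lower in all 4 populations, with log2 changes of -0.64 ± 0.048, -0.64 ± 0.048, -0.47 ± 0.048 and -0.47 ± 0.048 in WT, RQ, S181E and Y396E.

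SQSTM1 (ENSG00000161011.20, chromosome 5, 179820885 to 179838078) encodes p62, a receptor that binds ubiquitin and gathers cargo into condensates. Its WT control libraries had 249.7, 227.1 and 245.8 CPM and its WT arsenite libraries 403.5, 373.9 and 388.2. The ranges did not overlap, and the log2 change was 0.69 ± 0.050, with an edgeR adjusted p of 4.41e-12. In RQ cells the levels went from 236.7, 224.8 and 229.0 to 377.4, 381.6 and 391.1 CPM (0.74 ± 0.050). S181E control libraries, at 288.6, 278.1 and 295.7 CPM, and Y396E control libraries, at 292.2, 285.6 and 300.2, all exceeded every WT and RQ control library. In arsenite they reached 391.9, 376.3 and 373.8 CPM in S181E and 403.7, 378.8 and 444.1 in Y396E, from the lower end of the WT arsenite range to above it, with log2 changes of 0.41 ± 0.050 and 0.48 ± 0.050. On the opposite strand MRNIP shares 41.3% of the exon bases of SQSTM1, and the counting was strand-specific.

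NBR1 (ENSG00000188554.15, chromosome 17, 43170481 to 43211689), a receptor related to p62 that can act with it, was at 53.91, 53.93 and 58.99 CPM in WT control and 84.54, 83.36 and 79.91 in WT arsenite. It rose by 0.57 ± 0.066 in WT, 0.58 ± 0.066 in RQ and 0.44 ± 0.066 in Y396E cells, with edgeR adjusted p of 2.1e-08, 1.71e-08 and 2.09e-06. S181E libraries had 56.85, 52.40 and 57.86 CPM in control and 64.59, 66.10 and 67.81 in arsenite. These ranges were separate but close, and the log2 change of 0.248 ± 0.066 stayed under the fold threshold with an edgeR adjusted p of 0.00165. It passed the threshold without S181E arsenite replicate 1 (0.265), without S181E control replicate 3 (0.278) and with DESeq2 (0.263).

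OPTN (ENSG00000123240.17, chromosome 10, 13099449 to 13138308), a receptor for damaged mitochondria and bacteria, was not called in any population. Its WT libraries had 22.14, 21.18 and 22.89 CPM in control and 23.18, 24.37 and 24.08 in arsenite, with separate ranges at a log2 difference of 0.11 ± 0.082 (95% interval -0.06 to 0.29, edgeR adjusted p = 0.204). The difference was 0.15 ± 0.083 in RQ (adjusted p = 0.107 in edgeR), 0.02 ± 0.083 in S181E and 0.002 ± 0.081 in Y396E cells, and libraries of the 2 treatments overlapped in S181E and Y396E. When libraries were scaled by totals alone, OPTN was called higher in WT (0.27) and RQ (0.31) cells and, among controls, in Y396E against WT (0.27), a scaling that also moved the median of all genes for arsenite from -0.01 to 0.15 in WT and 0.16 in RQ.

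Both ATG8-family genes among the 9 rose. MAP1LC3B (ENSG00000140941.14, chromosome 16, 87383953 to 87404779) encodes LC3B, the usual marker protein of autophagosomes. It had 95.68, 100.3 and 95.20 CPM in WT control and 146.7, 142.6 and 153.2 in WT arsenite, a log2 change of 0.60 ± 0.068 (edgeR adjusted p = 1.41e-08). RQ cells lay above WT in both treatments, with 121.7, 128.4 and 121.3 CPM in control and 166.6, 193.1 and 212.6 in arsenite, and the change was of like size (0.63 ± 0.068). In S181E and Y396E cells it rose by 0.43 ± 0.068 and 0.40 ± 0.068. Of the 100-base stretches of MAP1LC3B transcripts, 5.55% occur elsewhere in hg38, nearly all in MAP1LC3B2, which stayed under 1 CPM.

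GABARAPL1 (ENSG00000139112.11, chromosome 12, 10212836 to 10223128), of the GABARAP branch of the family, went from 31.25, 30.17 and 31.90 CPM to 47.25, 45.04 and 48.69 in WT cells. The rise was 0.59 ± 0.073 for WT cells, 0.63 ± 0.073 for RQ, 0.42 ± 0.074 for S181E and 0.36 ± 0.073 for Y396E, with no overlap between treatments in any population. GABARAPL2, the other family member tested, went the other way and was called lower in all 4, by -0.40, -0.47, -0.38 and -0.34 on the log2 scale. With scaling by totals its WT value of -0.24 was no longer called. GABARAP was at 4.22 to 8.50 CPM in the means of the 8 groups and was not tested, and MAP1LC3A, MAP1LC3B2 and MAP1LC3C were under 1 CPM.

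ULK1 (ENSG00000177169.10, chromosome 12, 131894622 to 131923150) was called higher in RQ cells alone, and that call was weak. RQ libraries had 16.34, 15.53 and 16.94 CPM in control and 21.45, 21.70 and 19.59 in arsenite, a log2 change of 0.36 ± 0.145 (edgeR adjusted p = 0.0257) that was lost when RQ control replicate 1 or 2 or RQ arsenite replicate 1 or 2 was left out (adjusted p = 0.0518 to 0.074 in edgeR). WT libraries overlapped, with 14.96, 14.32 and 17.73 CPM in control and 16.49, 14.97 and 17.90 in arsenite (0.07 ± 0.146). Y396E arsenite libraries had 17.17, 17.52 and 9.58 CPM, the last in replicate 3, against 13.68, 15.06 and 13.41 in control. Without that replicate ULK1 was called higher in Y396E cells as well (0.31 ± 0.094, edgeR adjusted p = 0.00344). Its difference in response between RQ and WT was 0.29 ± 0.206 (adjusted p = 0.999 in edgeR).

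WIPI1 (ENSG00000070540.13, chromosome 17, 68421281 to 68457496) was the 1 member that fell. WT libraries went from 26.04, 26.68 and 25.45 CPM to 14.82, 15.19 and 16.72, and RQ libraries from 26.56, 27.04 and 27.79 to 16.35, 15.24 and 16.20. S181E libraries went from 21.98, 21.76 and 20.50 to 13.16, 12.05 and 13.47 CPM, and Y396E libraries from 20.57, 21.07 and 21.35 to 13.60, 13.68 and 11.57. The 2 treatments were widely separate in all 4 populations, with log2 changes of -0.74 ± 0.076, -0.77 ± 0.076, -0.73 ± 0.078 and -0.70 ± 0.077 (edgeR adjusted p at most 1.21e-08). ARSG, on the opposite strand, shares 28.3% of the exon bases of WIPI1.

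TFEB (ENSG00000112561.19, chromosome 6, 41683978 to 41736259) had 85 to 497 counts per library and exceeded 10 CPM in 1 of the 24, so it was outside the tested genes. WT libraries had 4.32, 3.54 and 4.34 CPM in control and 6.77, 6.13 and 6.94 in arsenite. S181E libraries had 3.67, 3.32 and 4.64 CPM in control and 8.54, 8.34 and 8.54 in arsenite, and Y396E libraries 4.04, 4.45 and 4.26 against 8.21, 9.10 and 12.66. Arsenite libraries were higher than control libraries without overlap in all 4 populations. With edgeR's looser filterByExpr filter (12934 genes), a test chosen after the data had been seen, TFEB was called higher by 0.67 ± 0.158 for WT cells, 0.66 ± 0.162 for RQ, 1.09 ± 0.157 for S181E and 1.21 ± 0.155 for Y396E (edgeR adjusted p at most 0.00087). Under that filter 31%, 32.1%, 27.3% and 29.3% of genes were called higher in the 4 comparisons. The Y396E rise was 1.01 ± 0.130 without Y396E arsenite replicate 3. Differences of the TFEB response from that of WT were not called. They were 0.416 ± 0.222 in S181E and 0.535 ± 0.221 in Y396E (edgeR adjusted p = 0.253 and 0.0995). Without that library the Y396E difference was 0.348 ± 0.182 (adjusted p = 0.173 in edgeR). TFEB was also higher in Y396E than in WT arsenite cells by 0.59 ± 0.149 (edgeR adjusted p = 0.00468, 9.72% of genes called higher), or by 0.39 ± 0.121 (adjusted p = 0.012 in edgeR) without Y396E arsenite replicate 3. The same comparison of S181E gave 0.36 ± 0.151 (edgeR adjusted p = 0.109), which was called without that Y396E library (0.36 ± 0.113, adjusted p = 0.0136 in edgeR).

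**Figure D2:**
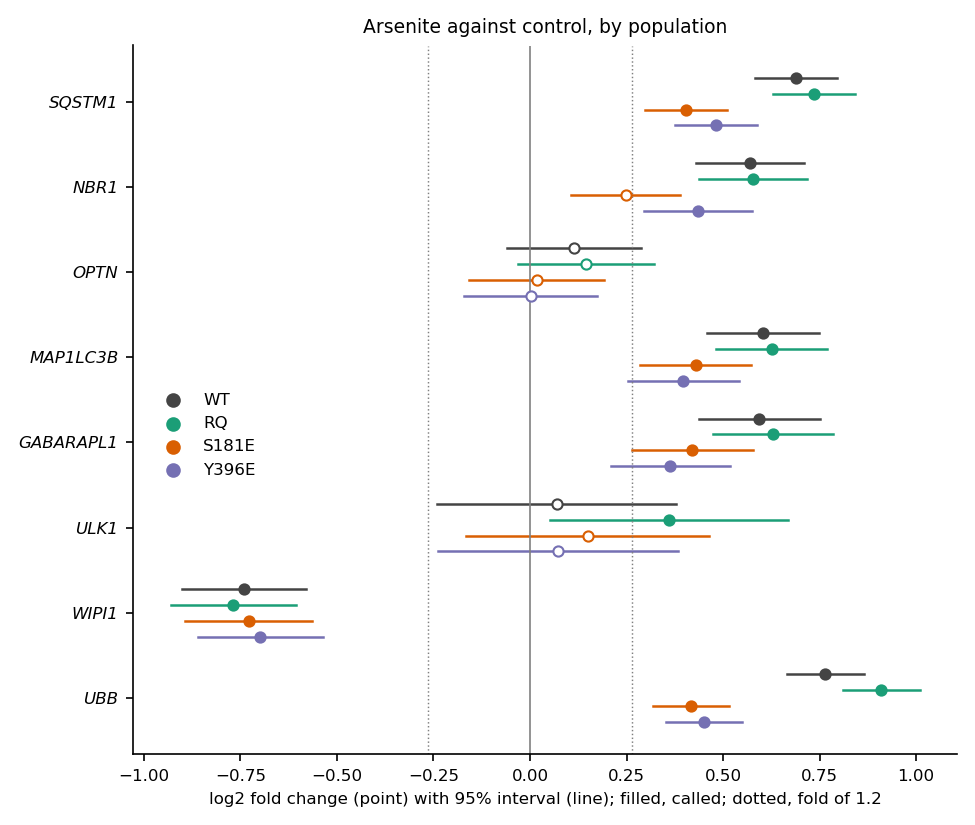
Log2 fold change of arsenite against control (x axis) for the 8 tested genes (y axis) in the 4 populations, as points with 95% intervals, filled where called and with dotted lines at a fold of 1.2. UBB in WT and RQ lay to the right of S181E and Y396E without overlapping intervals, whereas the 4 WIPI1 values lay together between -0.77 and -0.70.

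MAP1LC3B was the member called between RQ and WT cells in both treatments. In control cells 1 of the 8 genes was called between RQ and WT (1.43% of all genes), MAP1LC3B at 0.35 ± 0.069 (edgeR adjusted p = 0.00497). In arsenite again 1 was called (1.52% of all genes), MAP1LC3B at 0.37 ± 0.067 (edgeR adjusted p = 0.00144). The all-gene counts of 130 and 138 ranged from 74 (without WT control replicate 1) to 263 and from 70 (without RQ arsenite replicate 3) to 218, both highest without Y396E arsenite replicate 3. Every RQ library had a higher MAP1LC3B level than every WT library of the same treatment. RQ and WT libraries with the same number deviated together in both treatments, and in a fit of those 2 groups with the replicate number as a block, chosen after the data had been seen, MAP1LC3B was 0.35 ± 0.046 and 0.37 ± 0.029. ULK1 in arsenite, at 0.35 ± 0.144, was not called (adjusted p = 0.318 in edgeR) but was called in the blocked fit of the 2 groups (0.35 ± 0.072, edgeR adjusted p = 3.31e-05) and without Y396E arsenite replicate 3 (0.34 ± 0.082, adjusted p = 0.0102 in edgeR). IGF2BP1 itself was higher in RQ than in WT arsenite by 0.69 ± 0.093, and its part in these differences was not tested.

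In S181E and Y396E control cells, SQSTM1 and UBB were higher and WIPI1 lower than in WT, each close to the fold threshold. Of the 8 genes, 1 was called in S181E (31.1% of all genes) and 2 in Y396E (28.6% of all genes). WIPI1 was -0.283 ± 0.075 in S181E and -0.311 ± 0.075 in Y396E (edgeR adjusted p = 0.00316 and 0.00172), and all 6 mutant libraries lay below all 3 WT libraries. The S181E call was lost without S181E control replicate 3 (-0.254), and with scaling by totals the WIPI1 differences were -0.13 and -0.18 and neither was called. SQSTM1 was 0.281 ± 0.050 in Y396E (edgeR adjusted p = 7.64e-05) and, under the fold threshold, 0.255 ± 0.050 in S181E (adjusted p = 0.000196 in edgeR). It was called in S181E without WT control replicate 1 (0.282), WT control replicate 3 (0.270) or S181E control replicate 2 (0.278), and lost its call in Y396E without WT control replicate 2 (0.241) or Y396E control replicate 3 (0.262). UBB was 0.235 ± 0.047 in S181E and 0.251 ± 0.047 in Y396E, under the fold threshold with edgeR adjusted p of 0.00022 and 0.000123, and passed it in Y396E without replicate 1 of WT control (0.269) or of Y396E control (0.270). With scaling by totals UBB was called in both, at 0.39 and 0.38, and so was SQSTM1 in S181E, at 0.41. Along with these genes, IGF2BP1 was higher in S181E and Y396E control (0.63 and 0.45), as was KRT8 (0.36 and 0.42), while CDH1 (-0.46 and -0.42) and EPCAM (-0.29 and -0.28) were lower, and their part in these differences was not tested.

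In arsenite, NBR1 and WIPI1 were lower in S181E than in WT, and WIPI1 was lower in Y396E. The calls were 2 of 8 in S181E (13.7% of all genes) and 1 of 8 in Y396E (21.7% of all genes). NBR1 was -0.319 ± 0.065 in S181E (edgeR adjusted p = 0.00072), and in Y396E -0.236 ± 0.065 with all libraries and -0.320 ± 0.059, then called, without Y396E arsenite replicate 3. WIPI1 was -0.272 ± 0.078 in S181E and -0.268 ± 0.077 in Y396E (edgeR adjusted p = 0.0125 and 0.00891). These calls depended on single libraries: S181E lost its call without S181E arsenite replicate 2 (-0.227) or WT arsenite replicate 3 (-0.217), and Y396E without WT arsenite replicate 3 (-0.214) or Y396E arsenite replicate 3 (-0.194). The S181E call was also lost with DESeq2 (-0.260), with its size factors in edgeR (-0.260) and with scaling by totals (-0.228), and the Y396E call with scaling by totals (-0.244) and in a fit of these 2 groups alone (edgeR adjusted p = 0.17). GABARAPL1 was -0.21 ± 0.072 in S181E (edgeR adjusted p = 0.0359, under the fold threshold) and -0.18 ± 0.071 in Y396E (adjusted p = 0.0511 in edgeR). SQSTM1, called higher or near the threshold in control, was -0.03 ± 0.050 and 0.07 ± 0.049 in arsenite. IGF2BP1 was 0.57 ± 0.093 and 0.57 ± 0.092 higher than in WT arsenite, and its part was not tested.

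The arsenite responses themselves, compared with that of WT by an interaction term, were smaller in S181E for 3 of the 8 genes and in Y396E for 1. In either direction, 16.4% of all genes were called in S181E (856 lower, 635 higher) and 21.5% in Y396E (1014 lower, 940 higher). These shares stand for 1491 and 1954 genes, which with 1 library left out ranged from 746 (without WT control replicate 2) to 2149 (without Y396E arsenite replicate 3) and from 1159 (without WT control replicate 2) to 2442 (without Y396E arsenite replicate 2). UBB differed by -0.35 ± 0.066 in S181E (edgeR adjusted p = 0.00121) and by -0.31 ± 0.066 in Y396E (adjusted p = 0.00196 in edgeR). In S181E SQSTM1 differed by -0.284 ± 0.070 and NBR1 by -0.322 ± 0.093 (edgeR adjusted p = 0.00781 and 0.0192). SQSTM1 in S181E fell under the fold threshold without WT arsenite replicate 1 (-0.257), WT control replicate 2 (-0.244) or S181E control replicate 3 (-0.261), and NBR1 lost its call without the last 2 of these (edgeR adjusted p = 0.0546 and 0.0543). Without Y396E arsenite replicate 3, SQSTM1 (-0.267), MAP1LC3B (-0.266) and GABARAPL1 (-0.267) were called in Y396E and UBB (-0.257) was not. With scaling by totals, which moved the median of all genes from -0.03 to -0.14 in S181E and from -0.02 to -0.12 in Y396E, MAP1LC3B was called in S181E (-0.29), and SQSTM1 (-0.31), MAP1LC3B (-0.31) and GABARAPL1 (-0.33) were called in Y396E. WIPI1 responses differed by 0.01 ± 0.109 in S181E (95% interval -0.22 to 0.24) and 0.04 ± 0.108 in Y396E (-0.19 to 0.27).

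For RQ, 0 of the 8 responses were called in edgeR's test (0.22% of all genes, or 20 genes, which became 38 when Y396E arsenite replicate 3 was left out and 8 when RQ arsenite replicate 3 was), 1 of 8 had an unadjusted p under 0.05 (UBB, 0.14 ± 0.066) and DESeq2 called 0. Between Y396E and S181E, 0 of the 8 genes and 0% of all genes were called by edgeR in control (0) and in arsenite (0), with 289 and 1375 genes at an unadjusted p under 0.05 and 1 and 9 genes called by DESeq2. Without Y396E arsenite replicate 2, edgeR called 692 genes in arsenite, in a fit that kept replicate 3, the library that stood apart. Without Y396E arsenite replicate 3 it called 1 gene in control and 1 in arsenite. OPTN had the largest difference of the 8 between these lines, 0.22 ± 0.083 in control and 0.20 ± 0.082 in arsenite (edgeR adjusted p = 1 and 0.296).

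**Figure D3:**
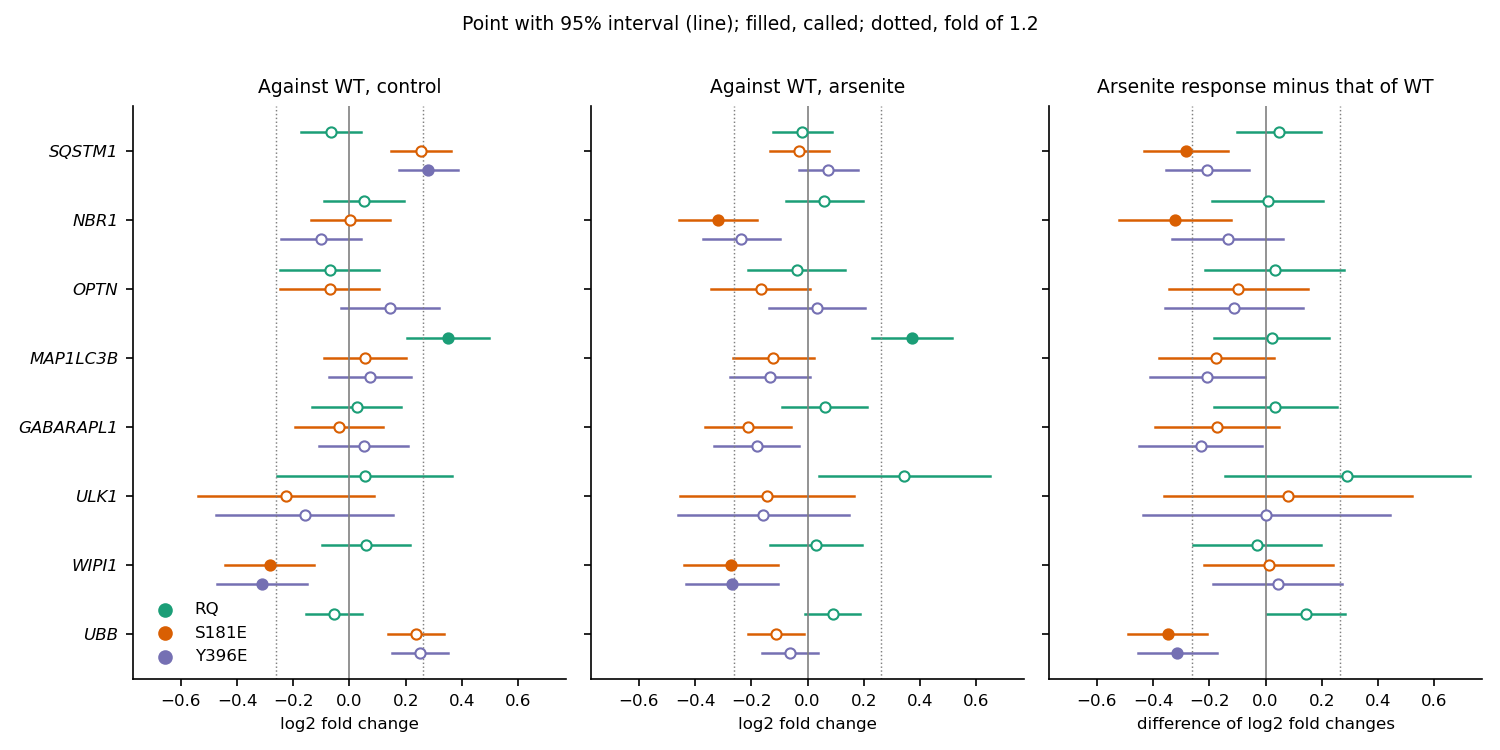
Log2 differences of RQ, S181E and Y396E from WT in control (left) and in arsenite (middle), and the difference of their arsenite responses from that of WT (right), as points with 95% intervals, filled where called and with dotted lines at a fold of 1.2. MAP1LC3B was set apart in RQ in both treatments, WIPI1 was lower in S181E and Y396E, and the UBB, SQSTM1 and NBR1 responses in S181E lay between -0.35 and -0.28.

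The 9 genes are part of 68 genes in lists of the autophagy machinery, of which 57 were tested. Arsenite raised 19 and lowered 25 of the 57 in WT, 19 and 21 in RQ, 16 and 16 in S181E and 18 and 18 in Y396E cells, with medians of -0.11, -0.05, -0.07 and -0.06 on the log2 scale. With scaling by totals the WT split was 20 and 17. Beside these counts, 36.3% of all genes were called higher and 35.9% lower in WT cells. Counts by list are given as a description. Of the 8 soluble receptors 5 were called higher and 1 lower, with TAX1BP1, another ubiquitin-binding receptor, at 1.01 ± 0.057 and CALCOCO2, which encodes NDP52, at 0.92 ± 0.144. None of the 8 membrane-bound receptors was called higher and 7 were lower, 3 of them with scaling by totals, among them TEX264, a receptor for endoplasmic reticulum, at -0.68 ± 0.078.

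In the class III PI3-kinase complex, which makes PI3P, 5 of 7 were called higher and 1 lower in WT cells. PIK3R4 rose by 1.93 ± 0.113, PIK3C3, the catalytic subunit, by 1.68 ± 0.111, AMBRA1 by 1.66 ± 0.117 and UVRAG by 1.02 ± 0.131. Of the 7 tested PI3P effectors and lipid transfer genes, the group of WIPI1, 1 was higher, the lipid transfer gene ATG2A at 1.25 ± 0.087, and 5 were lower, among them VMP1 at -0.83 ± 0.064 and WDR45B, which encodes the related WIPI3, at -0.71 ± 0.043. Of the 5 ULK1 complex genes 1 was higher and 2 lower, with ULK2, the paralog of ULK1, at -0.65 ± 0.098. ATG8 conjugation genes split 4 higher and 3 lower of 10, with ATG12 at -0.68 ± 0.051, and of the 6 fusion genes 0 were higher and 4 lower, of which PLEKHM1 (-0.28) lost its call in 14 of the 24 fits with 1 library left out.

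Between lines, 1 gene of the lists, MAP1LC3B, was called higher and 0 lower in RQ than in WT control, and 1 and 0 in arsenite (2 and 0, and 3 and 0, without Y396E arsenite replicate 3). In S181E 1 was higher and 8 lower in control and 2 and 8 in arsenite, and in Y396E 3 and 6 in control and 4 and 9 in arsenite. Of all genes, 31.1% and 28.6% were called in these 2 lines in control and 13.7% and 21.7% in arsenite, in either direction. With scaling by totals the control splits were 14 and 4 in both lines, and without Y396E arsenite replicate 3 the Y396E arsenite split was 2 and 9. RB1CC1, a scaffold of the ULK1 complex that also binds receptors, was the lowest of the lists in both lines, at -1.21 ± 0.094 and -1.28 ± 0.095 in control and -1.60 ± 0.092 and -1.58 ± 0.090 in arsenite. It lies on chromosome 8, whose 322 tested genes had medians of -0.42 and -0.41 in control and -0.44 and -0.45 in arsenite, against medians of 0.03, 0.02, -0.002 and 0.004 on the other chromosomes, and its part in the RB1CC1 value was not tested. None of the 9 genes lies there. TMEM41B, a lipid scramblase of autophagosome formation, was -0.63 ± 0.076 and -0.49 ± 0.076 in control, BNIP3L, a mitochondrial receptor, -0.48 ± 0.091 and -0.44 ± 0.091, and the protease gene ATG4C 0.48 ± 0.137 and 0.52 ± 0.138. BNIP3L also lies on chromosome 8, and its values were near the control medians of that chromosome (-0.42 and -0.41). The part of the chromosome in the BNIP3L values was not tested. In arsenite ATG12 was 0.36 ± 0.051 and 0.41 ± 0.051.

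**Figure D4:**
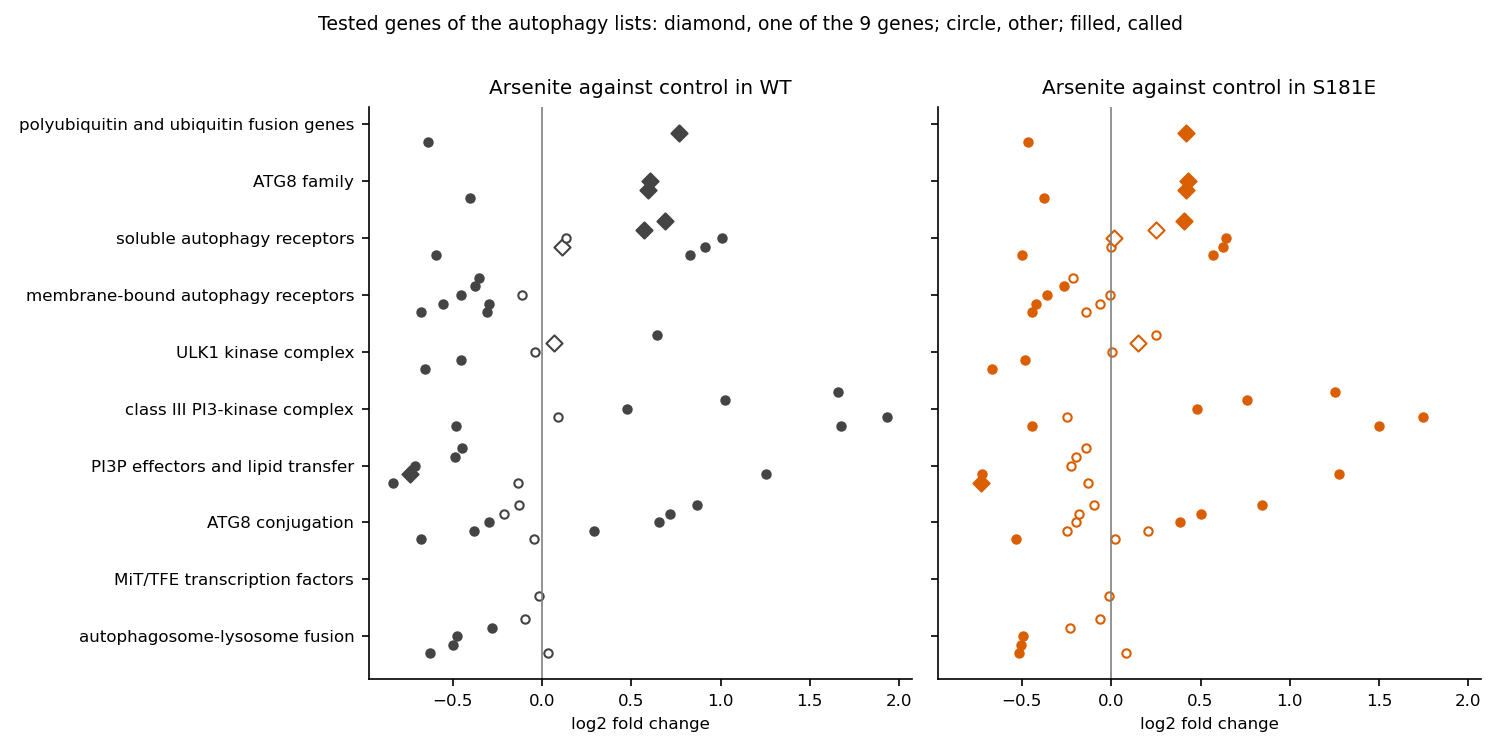
Log2 fold change of arsenite against control (x axis) for every tested gene of the autophagy lists (y axis) in WT (left) and S181E (right) cells, with diamonds for the 8 tested members, circles for others, and filled symbols for called genes. PIK3R4 is the point farthest right, at 1.93 and 1.75, and WIPI1 lies among the lowest in both, at -0.74 and -0.73.

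The genes with profiles nearest to each tested member over the 8 group means (root mean square difference of centred log2 CPM) were PCBP1 for SQSTM1 (0.029), FHIP1B for NBR1 (0.045), ARHGAP1 for OPTN (0.060), NIT1 for MAP1LC3B (0.058), SUCLG2 for GABARAPL1 (0.033), LETMD1 for ULK1 (0.052), CHMP3 for WIPI1 (0.024) and CLPX for UBB (0.041). The median distance of all genes from these 8 profiles was at least 0.285. The named genes were picked as the nearest of all tested genes, so they lie below that median by selection. Next in order came CORO1B and SEPTIN9 for SQSTM1, CDK13 and TKFC for NBR1, TRIP6 and ZFPL1 for OPTN, UBALD2 and PNPLA8 for MAP1LC3B, ARHGEF3 and ZNF687 for GABARAPL1, CLYBL and MACROD1 for ULK1, PCNX4 and SIM2 for WIPI1, and TOP2B and CPNE1 for UBB. None of these 24 genes was a member of the list.

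In parental cells, with 1 library per treatment and no test, the log2 ratios of arsenite to control were 0.66 for UBB, 0.58 for SQSTM1, 0.52 for NBR1, 0.45 for GABARAPL1, 0.29 for MAP1LC3B, 0.16 for ULK1, -0.002 for OPTN, -0.58 for WIPI1 and 1.24 for TFEB (94 and 274 counts). OPTN, at 35.26 and 35.20 CPM, and WIPI1 in control, at 35.02 CPM, were higher in parental cells than in any of the 24 other libraries. GABARAPL1 in parental arsenite, at 51.87 CPM, was just above the highest of the 24, at 50.96 CPM. The part of the engineering of the other cells in these differences was not tested.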

How the data were processed

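Poly(A) RNA from clarified lysate was sequenced with a strand-specific kit as single reads. The authors aligned reads to hg38 with STAR 2.7.11b and counted them per gene with featureCounts (Subread 2.0.6, strand setting 2, GENCODE release 46), without counting multi-mapping or multi-overlapping reads, and deposited these raw counts. Symbols came from GENCODE release 44, which matched 62541 of 63086 identifiers (99.1%). Protein-coding genes over 10 CPM in at least 12 of 24 libraries (9099 of 20044) were tested with edgeR 4.0.16 (R 4.3.3) by the quasi-likelihood test on TMM-scaled counts (factors 0.865 to 1.09), with 1 mean per group, 16 residual degrees of freedom and Benjamini-Hochberg adjustment over all tested genes. CPM are counts scaled to the tested genes' total of each library and its TMM factor, and levels per kb use the exon length of the files. Errors of log2 values are standard errors, and the median was 0.078 for a pair of groups and 0.11 for responses. The procedure was tested on simulated data in which few genes changed, unlike the arsenite comparisons here. Members and gene lists were chosen with earlier results of these data known. Named genes are the 9 members, RPS27A, the ATG8 family, the list genes with the largest called changes (5 each way for arsenite in WT, 3 elsewhere), the 3 nearest profiles and IGF2BP1. Groups were taken as paired where all same-numbered libraries deviated together at r over 0.1. RQ and WT were so in both treatments (r 0.291 to 0.525 in control, 0.147 to 0.15 in arsenite), and 10 of 12 pairs of groups were not. Single same-numbered libraries in those 10 could still deviate together, as in Y396E and WT control replicate 3 (r 0.421). Some items named by that rule are not reported here. Parental libraries stayed out of the fit. P-values measure the spread between dishes within groups, estimated over all 24 libraries, and not the spread between independently made lines.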

Additional observations from a re-analysis of the deposited data

Results flagged for a closer look

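In 14 cases the arsenite response of a member or pathway gene differed from that of WT by the interaction test in edgeR with Benjamini-Hochberg adjustment, as differences of log2 changes. In 4 cases the gene was one of the 9: UBB in S181E (-0.348) and Y396E (-0.314), SQSTM1 (-0.284) and NBR1 (-0.322) in S181E. The other 10 were pathway genes. In S181E the receptor gene TAX1BP1 (-0.369) and RB1CC1 (-0.392) had lower values than in WT, and VMP1 (0.607), TMEM41B (0.358) and RTN3 (0.29), a receptor for endoplasmic reticulum, higher ones. In Y396E CALCOCO2 (-0.547), UVRAG (-0.534) and TAX1BP1 (-0.381) had lower values, and VMP1 (0.543) and TEX264 (0.362) higher ones. Of the 57 tested pathway genes, 8 were called in S181E and 6 in Y396E, beside 1491 (16.4%) and 1954 (21.5%) of all 9099 tested genes. Without Y396E arsenite replicate 3, 14 of the 57 were called in S181E and 11 in Y396E, beside 2149 and 2181 of all tested genes. The cases are listed as a description of single genes and not as a result about the lists. The Y396E values without that library were -0.302 for CALCOCO2 and -0.344 for UVRAG, both still called, and 0.256 for TEX264 and -0.257 for UBB, both under the fold threshold. Calls were lost with single libraries left out, in 20 of 24 cases for CALCOCO2, 15 for RTN3, 9 for RB1CC1, 6 for UVRAG, 5 for TMEM41B and 4 for TEX264. VMP1 and TAX1BP1 in both lines kept their calls under the alternatives run and with each library left out.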

How the results depend on the processing

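Alternatives were DESeq2, its size factors in edgeR, library totals only, edgeR's filterByExpr, no filter, a replicate block, a fit of the compared groups alone, genes of every type, no fold threshold and leaving out each of 24 libraries. No value of a tested member turned its direction where it was called. Of 120 member values, leaving out a library kept 2850 results on their side of the threshold, with 13 gained and 17 lost, and the other settings kept 1064, with 24 gained and 8 lost. The replicate block over all 24 libraries changed no member's call (for example 6 called in WT arsenite and 3 in the S181E response). Counts of called members that moved by more than 1.5 times were: S181E against WT in control, 1, became 2 with totals, 2 with filterByExpr and 3 without a fold threshold; RQ against WT in arsenite, 1, became 2 with only these groups, with or without the replicate block; S181E against WT in arsenite, 2, became 1 with DESeq2, with its size factors and with totals; Y396E against WT in arsenite, 1, became 0 with totals and with only these groups and 2 without a fold threshold; and the Y396E response, 1, became 4 with totals and 2 without a fold threshold. Smaller moves, of 1 gene each, were found for arsenite in WT (6 to 7 with totals), RQ (7 to 8 with totals and to 6 with no filter) and S181E (5 to 6 in 5 settings), Y396E against WT in control (2 to 3 in 2 settings), S181E against WT in arsenite (2 to 3 without a fold threshold) and the S181E response (3 to 4 with totals). With single libraries left out, counts ranged from 0 to 2 for S181E and 1 to 3 for Y396E against WT in control, 1 to 2 for RQ, 1 to 2 for S181E and 0 to 1 for Y396E against WT in arsenite, 1 to 3 for the S181E response and 1 to 3 for the Y396E response. Scaling by totals shifted the all-gene median by over 0.1 in 6 comparisons and the share of calls that were higher from 50.3% to 61.6% (WT arsenite), 50.9% to 62% (RQ arsenite), 50.4% to 83.6% and 50.5% to 81.1% (S181E and Y396E against WT in control), 70% to 38.3% and 89.9% to 77.7% (RQ against WT in control and arsenite), 38.7% to 55.9% (S181E against WT in arsenite), and 42.6% to 13% and 48.1% to 18.2% (responses of S181E and Y396E). Of 173 calls of other pathway genes, 127 held in every alternative and 0 turned. Apart from the filter and the sets of libraries, which change what is tested, the cause of these shifts was not tested. With 3 libraries per group, member differences near 0.26 could not be placed firmly on either side of the threshold.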
